A study of Mus musculus with 15 samples.

Results

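Rbp4 and 8 further genes of retinoid carriage and synthesis were followed in alveolar macrophages, phagocytes that live in the air spaces of the lung. A gene was included where a probe was annotated on the array platform to exactly 1 of the symbols Rbp4, Rbp2, Crabp1, Crabp2, Stra6, Aldh1a1, Aldh1a2, Aldh1a3 and Ttr. Each of the 9 was read by 1 probe, out of 12909 genes with a symbol and 17225 probes in all. The set was selected on the log2 ratios of Rbp4 in these groups, whose differences were already known, so its values and those of the other 8 are given below as a description. All 9 were in the fit across all features, and nothing about Rbp4 is supported with its calls there.

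Total RNA of 15 macrophage samples was hybridised on 2-colour arrays, each against a common macrophage reference, in 3 groups of 5. The first group was labelled b6-/-TGFb+/+Dox, mice without the integrin beta6 subunit that were reconstituted with TGFb1. The second, b6-/-Dox, lacked beta6 without added TGFb1, and the third, b6+/+Dox, was wild type. All 3 groups had received doxycycline, and no array is labelled with a smoke exposure, although the series' title speaks of smoking. The labels give neither age, sex nor strain of the mice, nor what drives TGFb1, and no wild type group with TGFb1 is among the samples. They do not say whether each array holds a separate animal or a pool, so errors and p-values measure only how these samples spread, and that may be technical.

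Retinol leaves the liver bound to Rbp4, a plasma carrier of the lipocalin family, which travels in a complex with transthyretin, the product of Ttr. Stra6 is the cell-surface receptor that takes retinol from Rbp4. Inside cells, Rbp2 binds retinol and is best known from the intestine, the retinaldehyde dehydrogenases Aldh1a1, Aldh1a2 and Aldh1a3 make retinoic acid, and Crabp1 and Crabp2 bind it. Retinoic acid then acts through nuclear receptors.

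The promoter windows of Rbp4 are shown because Rbp4 had the largest differences of beta6 null from both other groups among the 9. RefSeq places 2 starts of Rbp4 on the minus strand of chromosome 19 (GRCm38.p6), and each window below runs 5′ to 3′ along the gene, from 250 bases before to 50 bases after the start. Capitals mark TGACCC, the reverse complement of the hexamer GGGTCA that retinoid receptors are known to contact, and TATAAA.
Rbp4 upstream start, chr19:38125272-38125571, minus strand: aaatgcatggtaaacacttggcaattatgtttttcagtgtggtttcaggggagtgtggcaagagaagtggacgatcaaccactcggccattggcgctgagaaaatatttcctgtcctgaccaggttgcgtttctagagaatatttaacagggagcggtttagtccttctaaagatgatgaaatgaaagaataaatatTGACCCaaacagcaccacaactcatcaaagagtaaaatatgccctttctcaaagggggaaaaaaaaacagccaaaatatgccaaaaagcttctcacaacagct
Rbp4 downstream start, chr19:38124762-38125061, minus strand: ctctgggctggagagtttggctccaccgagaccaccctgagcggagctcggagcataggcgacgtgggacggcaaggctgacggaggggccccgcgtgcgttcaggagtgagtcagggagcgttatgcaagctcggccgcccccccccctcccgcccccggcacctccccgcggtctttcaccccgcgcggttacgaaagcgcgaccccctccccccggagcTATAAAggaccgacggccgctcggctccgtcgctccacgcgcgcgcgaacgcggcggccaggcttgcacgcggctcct
Both strands were searched for the hexamers AGGTCA or GGGTCA or AGTTCA or GGTTCA, for direct repeats of them with 1, 2 or 5 bases between, for CAGAC, a core of Smad binding, and for TATAAA. The upstream window held 1 of the hexamers and the downstream window 0, and 43.7% of all 32851 windows of 300 bases hold at least 1. Neither window held a direct repeat, which 0.588% of all windows do, or CAGAC, which 49.6% do. The downstream window held 1 TATAAA, a sequence found in 13.6% of all windows. Such a match describes letters and shows no binding, and a missing match says only that the letters are not in this window. Windows of 5 other members were searched, and with the 2 of Rbp4 there were 11 windows. Of these 11, 5 held CAGAC, 4 a hexamer and 0 a direct repeat. No window of Crabp2, Aldh1a3 or Ttr was searched, so these counts say nothing about those genes.

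All values are log2 ratios centred on each array's median and read as sample over reference. The sources used here state neither the base of the logarithm nor the direction. The direction was taken from the channel order and from Mmp12, macrophage elastase, known to rise in macrophages of this mouse, and if the ratio were inverted every sign would turn. The 15 arrays held 11615 to 16483 values, and their SD ran from 0.841 to 2.01. The array correlations were positive throughout, at r = 0.189 to 0.668. Of 18 alveolar macrophage markers listed, 9 had a probe, Marco, Siglecf, Itgax, Mrc1 and Pparg among them, and all 9 were measured. A ratio to a macrophage reference does not show how much of a marker the cells hold, so the labelled cell type could not be checked by level.

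Rbp4 had log2 ratios of 3.20, 2.07, 0.00, -0.30 and 0.34 in beta6 null with TGFb1 (replicates 1 to 5), of 5.90, 4.74, 5.12, 3.90 and 3.47 in beta6 null, and of 0.14, 0.65, 0.23, 0.43 and 0.60 in wild type. Every beta6 null array lay above every array of both other groups. The TGFb1 arrays fell apart, with replicates 1 and 2 above all wild type arrays and replicates 3, 4 and 5 at or near the wild type range. The group means were 1.06 ± 1.51 with TGFb1, 4.63 ± 0.97 in beta6 null and 0.41 ± 0.22 in wild type (SD, n = 5 each). The difference of beta6 null from wild type was 4.22 (SE 0.62), that of the TGFb1 group from beta6 null was -3.57 (SE 0.62) and that of the TGFb1 group from wild type was 0.65 (SE 0.62). The last of these was about its own SE, and it was 0.12 without TGFb1 replicate 1.

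**Figure D1:**
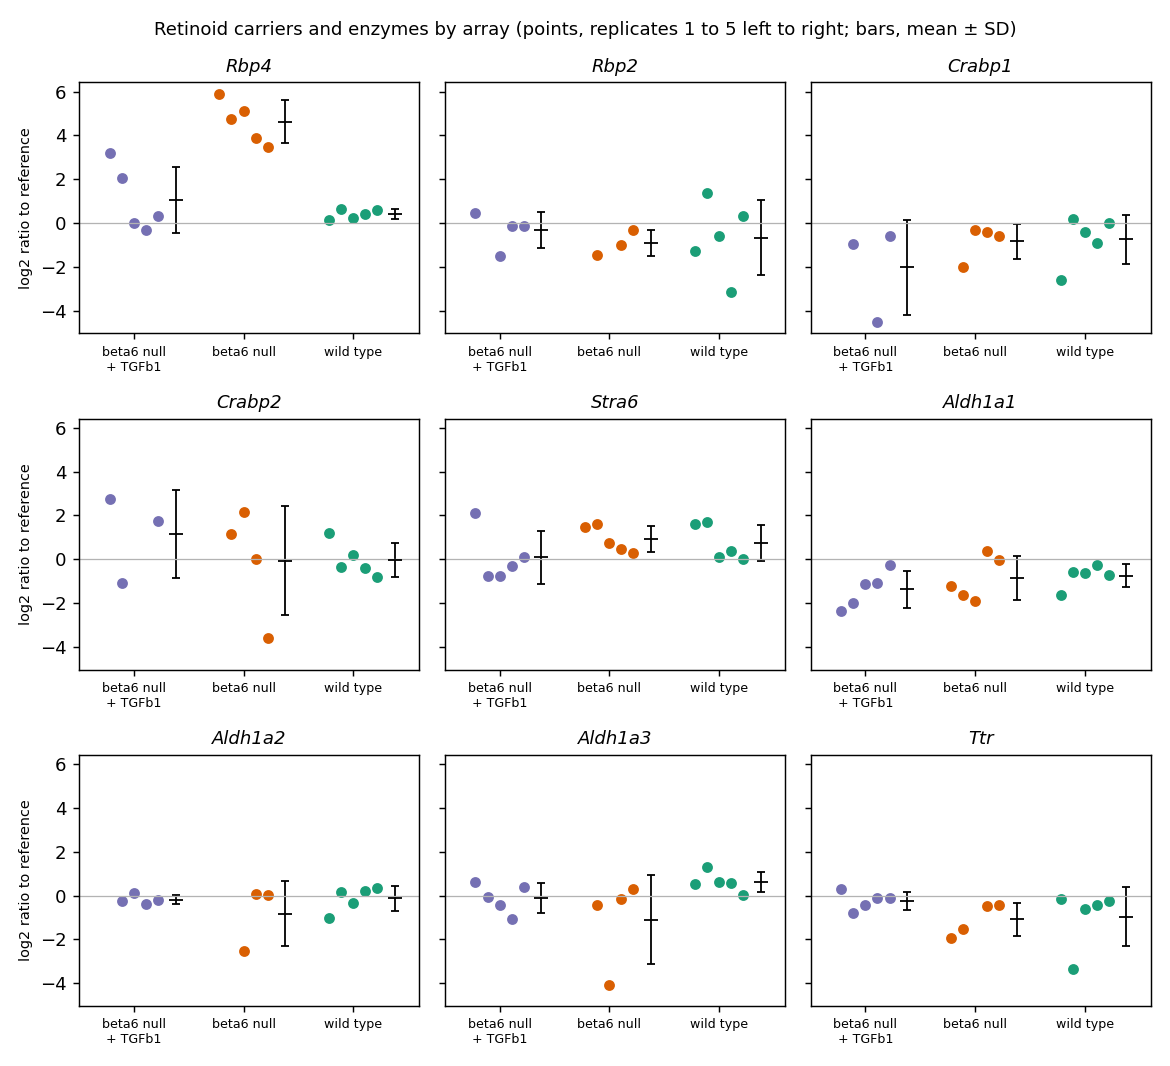
Log2 ratio to the reference of each of the 9 genes on each array, for beta6 null with TGFb1, beta6 null and wild type, with points for replicates 1 to 5 from left to right and bars for the mean ± SD over the arrays with a value. For Rbp4 the 5 beta6 null arrays lie between 3.47 and 5.90, above all others, while the groups of the other 8 genes overlap.

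The spread of Rbp4 was unlike in the 3 groups. Its SD in wild type was smaller than that of most features, at the 7.65th percentile of 13273, and its SD with TGFb1 was at the 90.8th percentile. Within beta6 null, the order of the Rbp4 ratios followed the order of the arrays' overall spread, with 5.90 on the array with the widest values and 3.47 on the narrowest, of SD 0.916. After every array was scaled to 1 common spread, the ratios were 3.17, 3.78, 3.88, 4.54 and 4.78 in replicates 1 to 5, now lowest on the widest array and highest on the narrowest. On that scale the means were 1.21 ± 1.66 with TGFb1, 4.03 ± 0.64 in beta6 null and 0.48 ± 0.36 in wild type (SD, n = 5 each), and TGFb1 replicate 1, at 3.41, lay above the lowest beta6 null array.

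Xist, a long RNA made from the silenced X of female cells, moved with the groups too. It was at -3.07 ± 0.49 with TGFb1, -0.40 ± 1.48 in beta6 null and -3.10 ± 0.71 in wild type (SD, n = 5 each). Among the beta6 null arrays, replicate 4 had the lowest Xist ratio, -2.46, within the range of the other groups, and an Rbp4 ratio of 3.90. With the Xist ratio as a covariate, Rbp4 differed by 4.31 (SE 1.02) between beta6 null and wild type and by -3.66 (SE 1.02) between the TGFb1 group and beta6 null. Neither difference was called in that fit (limma adjusted p = 0.213 and 0.451), where 0 of all 13273 features were called in either comparison. The r of Rbp4 with Xist was 0.717 over 15 arrays and -0.0335 on deviations from the group means. The part of Xist in the Rbp4 result was not tested beyond this covariate. In these bulk samples more Rbp4 RNA per cell and more cells of a kind that holds it cannot be told apart.

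In the limma fit over 13273 features, 1 of the 9 members was called higher in beta6 null against wild type, Rbp4, where 0.362% of all features were called higher, 0.588% lower and 0.949% in either direction (Benjamini-Hochberg adjusted p under 0.05). With TGFb1, 1 of 9 was called lower than in beta6 null, again Rbp4, where 0.128% of all features were called lower, 0.58% higher and 0.708% in either direction. Rbp4 was chosen for these contrasts, so nothing is read from these counts. Between the TGFb1 group and wild type 0 of 9 members and 0% of all features were called. The groups of Rbp4 did not overlap in the first comparison, as for 5.12% of all features, or in the second, as for 8.26%, and overlapped in the comparison of the TGFb1 group with wild type, where 2.88% of all features did not. The call of Rbp4 with TGFb1 against beta6 null was lost without TGFb1 replicate 3 (difference -3.30, adjusted p = 0.065) or 4 (-3.23, adjusted p = 0.0599), with equal spread of the arrays (-2.82, adjusted p = 0.101) and with the Xist covariate, all by limma.

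**Figure D2:**
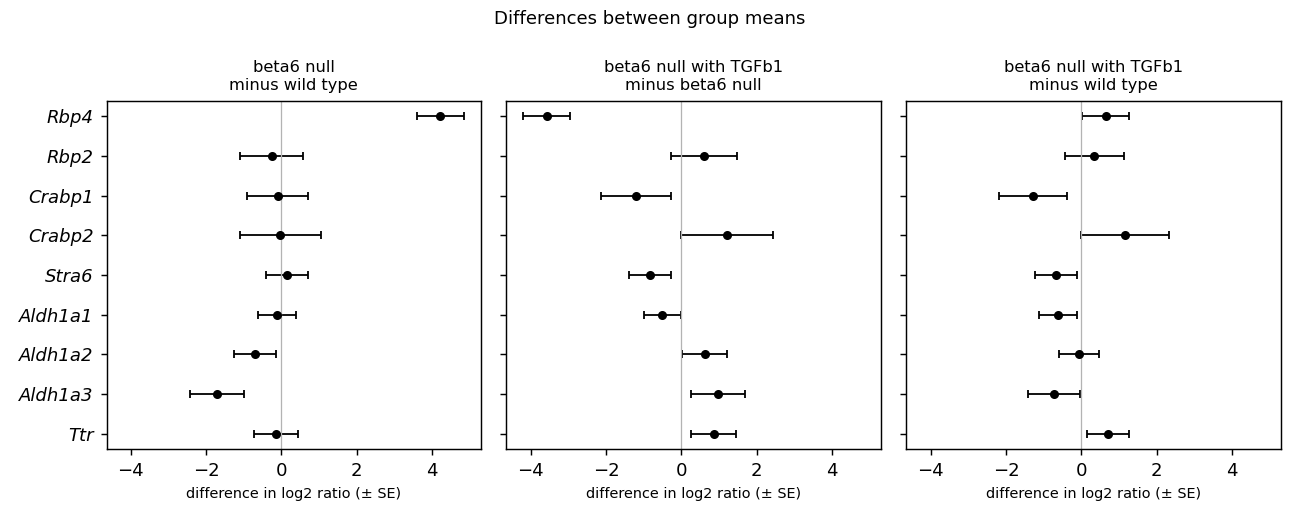
Difference in mean log2 ratio for the 9 genes, with its standard error from the limma fit, for beta6 null minus wild type, beta6 null with TGFb1 minus beta6 null, and beta6 null with TGFb1 minus wild type. Rbp4 stands at 4.22 and -3.57 in the first 2 panels, and the other 8 genes lie between -1.71 and 1.21 in those panels.

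Neither partner of Rbp4 outside cells was called in any of the 3 comparisons. Ttr, its plasma partner, had ratios of 0.29, -0.80, -0.45, -0.12 and -0.10 with TGFb1, of -1.93, -1.52, -0.47 and -0.44 in beta6 null, where replicate 3 had no value, and of -0.16, -3.34, -0.62, -0.42 and -0.24 in wild type. Its groups overlapped in all 3 comparisons. The difference of beta6 null from wild type was -0.14 (SE 0.59), its sign turned in 7 of 28 alternatives, and it was -0.73 (SE 0.36) without wild type replicate 2. That of the TGFb1 group from beta6 null was 0.86 (SE 0.59).

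Stra6, the receptor of Rbp4, gave 2.13, -0.76, -0.78, -0.30 and 0.12 with TGFb1, 1.47, 1.60, 0.73, 0.46 and 0.28 in beta6 null, and 1.60, 1.69, 0.12, 0.36 and 0.01 in wild type. All beta6 null ratios were above 0, but so were all those of wild type, and both ranges nearly coincide. The difference of beta6 null from wild type was 0.15 (SE 0.55), and that of the TGFb1 group from beta6 null was -0.83 (SE 0.55). With TGFb1, replicate 1 was high for both Stra6 and Rbp4, whereas replicate 2, also high for Rbp4, was among the lowest for Stra6.

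The intracellular binding proteins, like Aldh1a2, had values on 12 of the 15 arrays each. Rbp2, the retinol carrier, gave 0.48, -1.50, -0.12 and -0.12 with TGFb1, -1.47, -0.99 and -0.31 in beta6 null, and -1.29, 1.36, -0.57, -3.17 and 0.34 in wild type. Its wild type range enclosed both other groups. Beta6 null differed from wild type by -0.26 (SE 0.84) and the TGFb1 group from beta6 null by 0.61 (SE 0.88).

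Crabp1, which binds retinoic acid, gave -0.97, -4.51 and -0.59 with TGFb1, -2.01, -0.30, -0.39 and -0.61 in beta6 null, and -2.58, 0.18, -0.39, -0.90 and 0.01 in wild type. Most of its ratios lay below 0, and each group held 1 array far below its others. The differences were -0.09 (SE 0.81) for beta6 null against wild type and -1.19 (SE 0.93) for the TGFb1 group against beta6 null. Crabp2, which carries retinoic acid to its nuclear receptors, gave 2.77, -1.08 and 1.75 with TGFb1, 1.17, 2.15, 0.00 and -3.57 in beta6 null, and 1.21, -0.33, 0.18, -0.39 and -0.80 in wild type. Its residual SD, 1.80, was at the 95.9th percentile of all features, the highest of the 9 members, so its differences of -0.03 (SE 1.07) and 1.21 (SE 1.22) are poorly bounded.

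Of the retinaldehyde dehydrogenases, Aldh1a1 gave -2.38, -2.00, -1.15, -1.06 and -0.25 with TGFb1, -1.20, -1.62, -1.89, 0.39 and -0.01 in beta6 null, and -1.64, -0.56, -0.61, -0.26 and -0.72 in wild type. Nearly all ratios lay below the reference and the groups overlapped. Beta6 null differed from wild type by -0.11 (SE 0.50) and the TGFb1 group from beta6 null by -0.50 (SE 0.50). On the arrays of the TGFb1 group, replicates 1 and 2 had the highest Rbp4 and the lowest Aldh1a1 ratios.

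Aldh1a2, the main enzyme of embryonic retinoic acid synthesis, gave -0.27, 0.10, -0.39 and -0.22 with TGFb1, -2.54, 0.07 and 0.01 in beta6 null, and -1.03, 0.16, -0.33, 0.21 and 0.33 in wild type. Apart from 1 low array in beta6 null and 1 in wild type, its ratios lay close to the reference. Its differences were -0.69 (SE 0.56) for beta6 null against wild type and 0.62 (SE 0.59) for the TGFb1 group against beta6 null.

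Aldh1a3 gave 0.60, -0.07, -0.43, -1.08 and 0.40 with TGFb1, -0.44, -4.10, -0.17 and 0.31 in beta6 null, and 0.53, 1.31, 0.60, 0.59 and 0.02 in wild type. Of the 8 other members it had the largest difference of beta6 null from wild type, -1.71 (SE 0.72), and its groups overlapped. That difference was -0.71 (SE 0.41) without beta6 null replicate 3, the array with the ratio of -4.10. The TGFb1 group differed from beta6 null by 0.98 (SE 0.72).

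Over the 9 members, the median difference of beta6 null from wild type was -0.11, beside -0.047 over all features, and 2 members lay above 0 and 7 below. For the TGFb1 group against beta6 null the median was 0.61, beside 0.117 over all features, with 5 above 0 and 4 below. Against wild type the TGFb1 group had a median of -0.06, beside 0.07 over all features, with 4 above 0 and 5 below. These comparisons share arrays. The 9 members had 39 of 45 possible values with TGFb1, 37 of 45 in beta6 null and all 45 in wild type, so 13.3%, 17.8% and 0% were missing, beside 15.2%, 17.9% and 16.1% over all probes. Beta6 null replicate 1, 1 of the 2 arrays with the widest values, lacked 5 of the 9 members. The deposited ratios carry no intensities, so the signal behind each value is unknown.

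The wider retinoid pathway was read by 4 lists, with 37 genes tested beside the members. In beta6 null against wild type 0 rose, 2 fell and 35 were not called, with a median difference of -0.03. Over all features 0.362% were called higher and 0.588% lower, and the median was -0.047. With TGFb1 against beta6 null 1 rose, 0 fell and 36 were not called, with a median of 0.22. Here 0.58% of all features were called higher and 0.128% lower, and the median was 0.117. Between the TGFb1 group and wild type 0 of 37 were called, with a median of 0.23, beside 0% and 0.07 over all features. The called genes were Scarb1 and Nrip1, and 0 of the 37 were called in beta6 null against wild type without wild type replicate 1 or 3.

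Scarb1, a lipoprotein receptor that also takes up carotenoids, fell by 1.18 in beta6 null (SE 0.26, limma adjusted p = 0.0455). It averaged -0.50 ± 0.15 in beta6 null and 0.67 ± 0.29 in wild type (SD, n = 5 each). Its groups did not overlap, as for 5.12% of all features. With TGFb1 it averaged 0.63 ± 0.45, and its difference from beta6 null, 1.13 (SE 0.26), did not pass (adjusted p = 0.0605). This call held in 7 of 29 alternatives, with adjusted p from 0.00906 to 0.604.

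Nrip1, a corepressor of retinoid and other nuclear receptors, fell by 1.25 in beta6 null (SE 0.24, limma adjusted p = 0.0216) and rose by 1.12 with TGFb1 against beta6 null (SE 0.24, adjusted p = 0.045). Its 2 probes disagreed. The first averaged -0.01 ± 0.24 with TGFb1, -2.04 ± 0.61 in beta6 null and 0.52 ± 0.26 in wild type, and the second 1.31 ± 0.26, 1.11 ± 0.53 and 1.04 ± 0.31 in the same groups (SD, n = 5 each). The calls thus rest on 1 of the probes. The fall in beta6 null was called in 23 of 29 alternatives, with adjusted p from 0.000381 to 0.705. The rise with TGFb1 was called in 8 of 29 alternatives, with adjusted p from 0.00302 to 0.653. Where an alternative fitted each probe separately, the first probe alone stood for the gene in both tallies, and the second was not counted. These tallies therefore do not weigh the disagreement of the probes.

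Among 7 tested genes of retinoid binding and uptake, Scarb1 was the 1 called. Lpl, which frees retinyl esters from lipoproteins, was at -1.07 (SE 0.46, limma adjusted p = 0.382) in beta6 null and at 1.43 (SE 0.46, adjusted p = 0.162) with TGFb1 against beta6 null. Rbp3, a retinoid carrier of the eye, was at -1.18 (SE 0.49) and 1.41 (SE 0.46) and was not called.

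Of 21 genes of synthesis, storage and cleavage, 0 were called in any of the 3 comparisons by limma. Over all features 0.949% were called in beta6 null against wild type, 0.708% with TGFb1 against beta6 null and 0% against wild type. Bco1, which cleaves carotenes to retinal, averaged -0.08 ± 0.96 with TGFb1, 1.48 ± 0.43 in beta6 null and 0.21 ± 0.68 in wild type (SD, n = 5 each). Its beta6 null arrays lay above all wild type arrays, and 5.12% of all features had groups that did not overlap in this comparison. The difference of 1.26 (SE 0.45) did not pass (limma adjusted p = 0.273), nor did that of -1.55 (SE 0.45) with TGFb1 (adjusted p = 0.117). The lipase Lipe, at -1.99 (SE 0.69), and the alcohol dehydrogenase Adh7, at 1.97 (SE 0.80), were not called in beta6 null either. Of the breakdown genes 1 was tested, Cyp2c39, at -0.03 (SE 0.32) in beta6 null.

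Of 8 nuclear receptors and corepressors, Nrip1 was the 1 called. The orphan receptors Nr2f1 and Nr2f2 were at -0.58 (SE 0.25) and 0.59 (SE 0.24) in beta6 null against wild type. Of the retinoic acid and retinoid X receptors, Rara was at 0.77, Rarg at 0.64, Rxra at 0.38 and Rxrg at 0.03 in beta6 null, with limma adjusted p of 0.757, 0.584, 0.762 and 0.984, and these 4 were picked after their values were seen.

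Genes known to be induced by retinoic acid showed 0 calls among 16 in each comparison. Over all features 0.949% were called in beta6 null against wild type, 0.708% with TGFb1 against beta6 null and 0% against wild type. With shares this low, 0 of 16 says little about these genes. Their median difference was -0.15 in beta6 null against wild type and 0.08 in the other comparisons. Over all features the medians were -0.047 in beta6 null against wild type, 0.117 with TGFb1 against beta6 null and 0.07 against wild type. Tgm2, a transglutaminase and a long-known target in macrophages, averaged -0.32 ± 0.28 with TGFb1, -1.64 ± 0.40 in beta6 null and -1.07 ± 1.24 in wild type (SD, n = 5 each). Its TGFb1 arrays lay above all beta6 null arrays, and the difference of 1.32 (SE 0.47) did not pass (limma adjusted p = 0.204). Groups did not overlap for 8.26% of all features in that comparison. The homeobox gene Meis1 was at -1.63 (SE 0.45, limma adjusted p = 0.132) in beta6 null, with no overlap with wild type, as for 5.12% of all features. The transcription factor Bhlhe40 was at 0.92 (SE 0.34, adjusted p = 0.219) with TGFb1 against beta6 null.

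Relatives of the carriers by protein family were read by further lists. Of 8 other lipocalins tested, 0 were called in any comparison, and 7 lay below 0 in beta6 null against wild type, with a median of -0.71. Over all features 46.9% lay above 0, with a median of -0.047. Some lipocalins rest on 3 or 4 arrays per group, such as Lcn12 (SE 0.78) and Ambp (SE 1.16). Ptgds, a lipocalin that makes prostaglandin D, was at -0.56 (SE 0.32), and Orm3 and Obp1a at 1.12 (SE 0.91) and -0.84 (SE 1.04). The intracellular lipid-binding family, to which Rbp2, Crabp1 and Crabp2 belong, had 6 further members tested. The fatty acid-binding protein Fabp5 was called higher and Fabp1 lower in beta6 null, both in the opposite direction with TGFb1. Over all features 0.362% were called higher and 0.588% lower in beta6 null, and 0.58% higher and 0.128% lower with TGFb1. Fabp5 averaged 0.44 ± 0.15 with TGFb1, 1.61 ± 0.24 in beta6 null and -0.49 ± 0.30 in wild type, and Fabp1 -0.42 ± 0.56, -2.94 ± 0.57 and 0.33 ± 0.34 in the same groups (SD, n = 5 each). Fabp3 was at 1.09 (SE 0.72) in beta6 null and was not called.

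**Figure D3:**
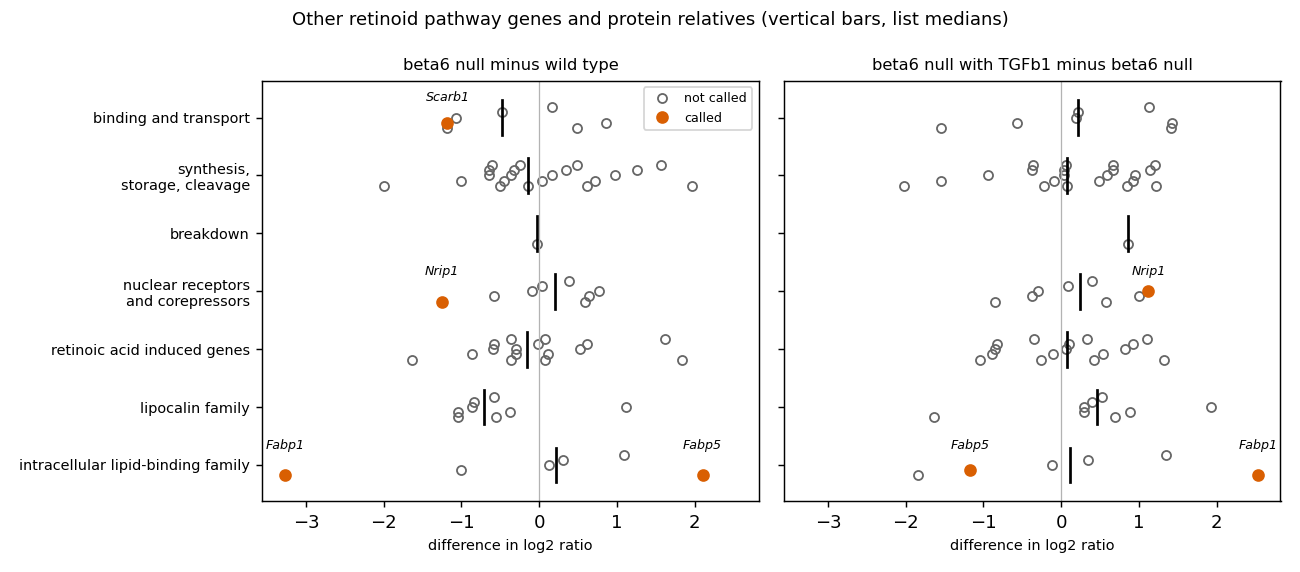
Difference in log2 ratio for each tested gene of the 4 retinoid pathway lists, the genes induced by retinoic acid and both protein families, for beta6 null minus wild type and beta6 null with TGFb1 minus beta6 null. Filled points passed the limma test and vertical bars are list medians, so that Scarb1 (-1.18 in beta6 null), Nrip1 (-1.25 and 1.12), Fabp1 and Fabp5 stand out among open points.

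Hepatocytes and adipocytes are the best known sources of Rbp4. Of 10 hepatocyte markers tested 0 rose and 1 fell in beta6 null, Apoh, an apolipoprotein of plasma, at -3.68 (SE 0.56, limma adjusted p = 0.00832), and Alb, albumin, was at -0.26 (SE 0.46). Of 6 adipocyte markers 0 rose and 1 fell, Cidec, a lipid droplet protein, at -1.35 (SE 0.25, limma adjusted p = 0.0216), and Adipoq, adiponectin, was at 0.62 (SE 0.75). Over all features 0.362% were called higher and 0.588% lower in this comparison. The mean ratio of the 3 hepatocyte markers on all arrays ran from -0.43 to 1.58 with TGFb1, from -0.30 to 1.32 in beta6 null and from -0.53 to 0.75 in wild type.

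Of 14 markers of dendritic cells and monocytes, 2 rose, 1 fell and 11 were not called in beta6 null, where 0.949% of all features were called. Their differences were above 0 for 13 of 14, with a median of 1.13, beside 46.9% of all features above 0 and a median of -0.047. The called markers were the lectin Clec10a (3.46, SE 0.60) and the class II gene H2-Aa (1.82, SE 0.39), which rose, and the receptor Ly75, which fell (-2.72, SE 0.36). With TGFb1 against beta6 null the integrin Itgae fell (-3.89, SE 0.73), with values on 3 of the 5 TGFb1 arrays. The other 13 were not called, 10 of the 14 lay below 0 and the median was -0.71. In that comparison 0.708% of all features were called and 56.7% lay above 0, with a median of 0.117. The 4 such markers on all arrays were Zbtb46, Ly75, H2-Aa and Cd74. This set holds Ly75, which fell, and leaves out Clec10a and Itgae, which lacked values on some arrays. Its mean ratio ran from -0.23 to 0.21 with TGFb1, from -0.19 to 0.43 in beta6 null and from -0.65 to 0.06 in wild type.

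Single markers of further cell types were called too. Over all features, 0.949% were called in beta6 null against wild type and 0.708% with TGFb1 against beta6 null. Of 14 lung epithelium markers, the surfactant gene Sftpc rose (2.18, SE 0.47) and the keratin Krt19 (-2.01, SE 0.40) and the adhesion gene Epcam (-2.34, SE 0.42) fell in beta6 null. The other 11 were not called, and 10 of the 14 lay above 0, with a median of 0.49. Krt19 (2.37, SE 0.40) and Epcam (1.98, SE 0.42) rose with TGFb1 against beta6 null. The other 12 were not called there, and 9 of the 14 lay below 0, with a median of -0.31. Of 10 fibroblast and endothelium markers, the VEGF receptor Flt1 (-4.16, SE 0.54) and the coreceptor Eng (-1.97, SE 0.43) fell in beta6 null. The other 8 were not called, and 5 of the 10 lay above 0 and 5 below. Of 8 neutrophil markers S100a8 rose in beta6 null (2.13, SE 0.29) and 7 were not called, with 4 above 0 and 4 below. Of 9 lymphocyte and 2 erythroid markers 0 were called by limma in any comparison. Of the 9 alveolar macrophage markers Fabp5 rose in beta6 null (2.10, SE 0.23) and fell with TGFb1 against beta6 null (-1.17, SE 0.23). Pparg, a nuclear receptor needed by these cells, rose with TGFb1 against beta6 null (1.84, SE 0.35). In beta6 null the other 8 were not called, with 4 of the 9 above 0, 5 below and a median of -0.21. With TGFb1 the other 7 were not called, with 8 of the 9 above 0, 1 below and a median of 0.52. The mean ratio of the 7 lung epithelium markers on all arrays ran from -0.83 to -0.18 with TGFb1, from -1.16 to -0.59 in beta6 null and from -1.77 to -0.02 in wild type. For the 6 fibroblast and endothelium markers it ran from -0.23 to 0.62 with TGFb1, from -0.97 to 1.12 in beta6 null and from 0.34 to 1.42 in wild type. The part of all these markers in the Rbp4 result was not tested.

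The pattern of Rbp4 over the 15 arrays was set against 5503 genes with values on all of them. The 6 most alike were Lat2, an adaptor of immune receptor signalling (r = 0.968), Blnk, an adaptor of B cell receptor signalling (0.945), the transcription factor Nfia (0.93), Wfdc18 (0.93), Marcks, a substrate of protein kinase C (0.928), and the prion protein gene Prnp (0.918). The lowest were Chic2 (-0.926), Scarb1 (-0.925) and Zbtb1 (-0.905). These r describe arrays that share group, reference and overall spread. Taken on deviations from the group means, r was 0.92 for Lat2, 0.94 for Blnk, 0.649 for Nfia, 0.633 for Wfdc18, 0.702 for Marcks and 0.842 for Prnp, and -0.776 for Chic2, -0.665 for Scarb1 and -0.655 for Zbtb1. After scaling to 1 common spread it was 0.859, 0.912, 0.61, 0.755, 0.806 and 0.671 for the first 6 in that order, and -0.741, -0.576 and -0.346 for the last 3.

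The values of the most alike genes within the TGFb1 group are given as a description, since they were picked for likeness to Rbp4 over the same arrays. Lat2 gave 2.88, 2.78, 0.63, 0.75 and 0.13 with TGFb1, against 6.09, 4.59, 5.47, 3.83 and 2.72 in beta6 null. Blnk gave 3.68, 3.11, 0.15, 0.78 and 1.05 with TGFb1, against 4.37, 3.92, 4.12, 2.86 and 2.50 in beta6 null. In both, as in Rbp4, TGFb1 replicates 1 and 2 were the high ones. Mmp12 had 2.69 and 1.37 as its highest and lowest ratio in the same group, and its r with Rbp4 was 0.865 over 14 arrays and 0.448 on deviations. Of the other members, Stra6 had the highest r with Rbp4 on deviations, 0.585, and Aldh1a1 the lowest, -0.678, both over 15 arrays.

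**Figure D4:**
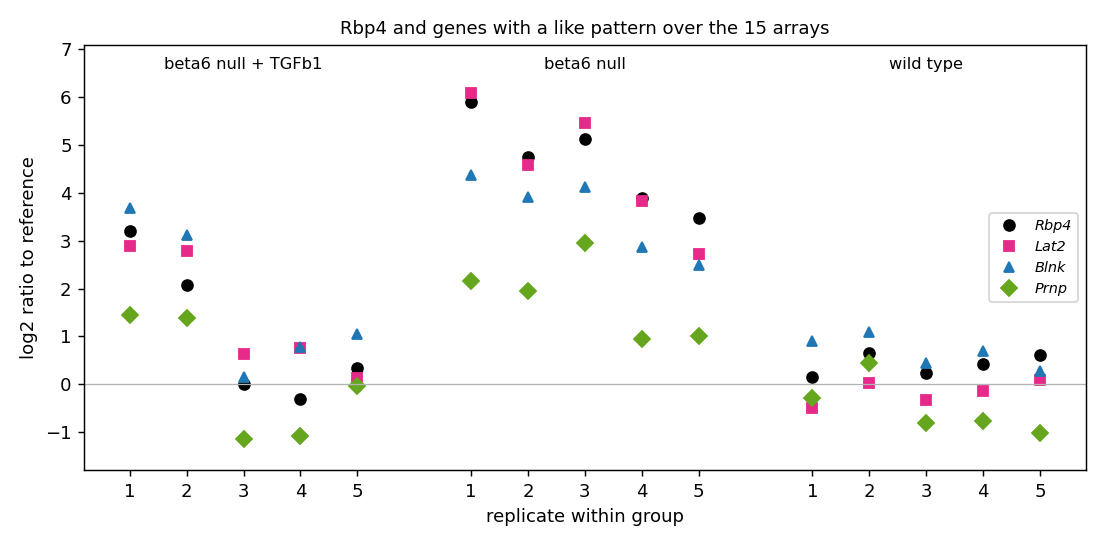
Log2 ratio of Rbp4, Lat2, Blnk and Prnp on each array, by replicate within beta6 null with TGFb1, beta6 null and wild type. In the TGFb1 group replicates 1 and 2 are high for all 4 genes (3.20 and 2.07 for Rbp4), and in beta6 null all 4 genes lie higher than in wild type.

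The genes beside Rbp4 on its chromosome were read too, picked after their values were seen. Of the 4 tested genes on each side, from Kif11 to Noc3l, 0 of 8 were called in any comparison by limma, with differences of -0.53 to 0.87 for beta6 null minus wild type and adjusted p of at least 0.277. With TGFb1 against beta6 null they ran from -1.34 to 0.62, the lowest being that of Exoc6, a subunit of the exocyst (adjusted p = 0.0632). Over all features 0.949% were called in beta6 null against wild type, 0.708% with TGFb1 against beta6 null and 0% against wild type. Beside these shares, 0 of 8 says little about the region.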

How the data were processed

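The members and lists were chosen with earlier results of these data known. The deposited values are 1 log2 ratio per probe and array. No step, scanner, dye or normalization is named per the labels or the table's header, so how the authors made them is not given in these sources. Base 2 was assumed from values as large as 9.49. Of 17225 probes, 30 controls were left out by name. Of the others, 13972 carried 1 symbol, 13 several and 3210 none. Of the probes with 1 symbol, 13869 took the name held for their Entrez ID in a RefSeq table (GRCm38.p6), changed or not. That table also gave the gene order. Arrays were centred on their medians, probes of 1 gene were averaged, and 13273 features with at least 3 values in every group were fitted over all 15 arrays with limma 3.58.1 in R 4.3.3 (3 group means, eBayes, Benjamini-Hochberg over all features within each comparison, threshold 0.05). Tested on simulated data of 13273 genes for beta6 null against wild type, 16%, 54%, 76% and 80% of 50 genes changed by 1, 2, 3 and 4 log2 units were recovered, with 9 unchanged genes called. Named were the members, all called pathway genes and the 3 with the smallest p per list, and the genes most and least like Rbp4 (6 and 3). Rara, Rarg, Rxra, Rxrg, the marker genes and the neighbours of Rbp4 were added after their values were seen. Alternatives were other scalings, filters, samples, weights and covariates. The number of arrays limits the precision. Sequences came from RefSeq tables of GRCm38.p6.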

Additional observations from a re-analysis of the deposited data

Results flagged for a closer look

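In 2 of 23 groups of 4 or 5 arrays tested, 1 array stood apart from the others of its group by Dixon's criterion, which chance meets in about 1 of 20 groups. Aldh1a3 was at -4.10 in beta6 null replicate 3, below 3 other arrays at -0.44 to 0.31. Ttr was at -3.34 in wild type replicate 2, below 4 other arrays at -0.62 to -0.16. Both arrays were among those with the widest values, with an SD of 1.62 and 2.01.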

How the results depend on the processing

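The difference of Rbp4 kept its sign in all 29 alternatives of each comparison. It was 3.50 to 4.51 for beta6 null minus wild type (3.90 to 4.51 leaving out 1 array), from -4.10 to -2.82 for the TGFb1 group against beta6 null (-4.10 to -3.23) and from 0.12 to 0.99 against wild type. Rbp4 was chosen on these contrasts, so how often it was called supports nothing. Its call was lost with the Xist ratio as a covariate in the first comparison (adjusted p = 0.213) and the second (0.451), and in the second also with the groups compared alone (0.0565) and without the 2 arrays whose title numbers stand apart (0.0619), beside the losses named with the result. The other 8 members were called in 0 of 618 values under the alternatives. The calls in beta6 null against wild type, 126, became 76 under quantile normalization (40 higher, 36 lower), 61 with equal spread (30 higher, 31 lower), 41 when just these groups were fitted, 64 blocking on the title suffix, 78 leaving out the arrays with title numbers apart, 190 without the 2 widest arrays, 433 with array weights and 0 with Xist, and 64 to 154 leaving out 1 array (72 without beta6 null replicate 2, and 81, 68, 80 and 64 without wild type replicates 1, 3, 4 and 5). For the TGFb1 group against beta6 null, 94 became 15 (8 higher, 7 lower), 11, 43, 30, 321, 1000 and 0 under quantile normalization, equal spread, suffix, title numbers, widest arrays, weights and Xist, 142 and 220 with values on at least 4 arrays per group and on all 15, and 23 to 318 leaving out 1 array (40, 49, 24 and 23 without TGFb1 replicates 1 to 4, 38 and 52 without beta6 null replicates 2 and 4, and 318 without wild type replicate 2). Against wild type, 0 became 1 with these groups alone, 2 with weights and 0 to 1 leaving out 1 array, and 833 features had an unadjusted p under 0.05. The 2 retinoid pathway genes called in beta6 null became 1 under quantile normalization, equal spread or no filter, and 0 with the groups alone, the suffix, title numbers or Xist (0 to 2 leaving out 1 array). The 1 with TGFb1 became 0 under no centring, quantile normalization, equal spread, no filter, the groups alone, the suffix, title numbers or Xist, 2 under both stricter filters, 3 without the widest arrays and 6 with weights (0 to 2 leaving out 1 array). Stricter filters tested fewer features. The cause of these shifts was not tested. No paired analysis was possible because no label pairs arrays across groups.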
